A study of Mus musculus with 9 samples.

Results

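The 78 genes described here encode the proteins of the mitochondrial ribosome (mitoribosome) and were measured by RNA sequencing in mouse anterior lens capsule, the basement membrane that covers the lens on its cornea side together with the epithelial cells attached to it. They are all entries of the deposited count table whose symbol starts with Mrpl or Mrps and a digit, 49 and 29 of them, out of 17527 gene symbols. Each had at least 100 counts summed over the 9 libraries, the lowest being 741, and all 78 were among the 13711 genes tested. The libraries are 3 aged EGCG (old mice treated with epigallocatechin gallate, a green tea catechin), 3 aged control (old, untreated as far as the labels tell) and 3 young control. No source used here gives strain, sex, age in numbers, dose, route or duration, or says whether a library is 1 animal or a pool. A p-value therefore covers only how far these libraries scatter, and that scatter may be technical.

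Mitochondria keep a small genome of their own, whose few protein products are core subunits of the oxidative phosphorylation complexes. The mitoribosome that translates them is built from ribosomal RNA made inside the organelle and from proteins encoded in the nucleus, made in the cytosol and imported. Its small subunit reads the messenger RNA, its large subunit joins the amino acids, and part of its proteins descend from bacterial ribosomes while others exist only in mitochondria. In the lens, mitochondria are held by the epithelial cells and the young outer fibre cells, and are removed as fibre cells mature.

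Symbols follow older names and are not an exact guide to the subunit. By textbook assignment 51 of the genes encode large subunit proteins, among them Mrps30 and Mrps18a despite their prefix, and 26 encode small subunit proteins. Mrps36 is kept because its symbol fits, although its protein is now known as a part of the 2-oxoglutarate dehydrogenase complex and not of the ribosome. Homologues of bacterial ribosomal proteins make up 46 genes and mitochondria-specific proteins 29, and the remaining genes, Mrps36 among them, were assigned to neither class. The genes lie on 17 chromosomes.

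Promoter sequences are shown because transcription factors of the NRF1, ETS (GABP) and YY1 families are known regulators of nuclear genes for mitochondrial proteins. Most of the 78 genes were called higher in both aged groups than in young control. RefSeq promoter windows (mouse build GRCm38.p6, 250 bases before to 50 after the annotated start, 300 bases in all) matched 69 of the 78 genes. Capitals mark the matches to the full palindromic NRF1 motif, to its core TGCGCA, to the ETS letters CCGGAAG and to the YY1 letters AAGATGGC. Each was searched on both strands, and a reverse ETS match reads CTTCCGG. The 5 windows below show an example of each match and, for Mrps30, a window without any. Each is written 5′ to 3′ on the strand of its gene: Mrpl52 at chr14:54426659-54426958 (plus), Mrpl42 at chr10:95501900-95502199 (minus), Mrpl58 at chr11:115403502-115403801 (plus), Mrpl9 at chr3:94443086-94443385 (plus) and Mrps30 at chr13:118387203-118387502 (minus).
Mrpl52: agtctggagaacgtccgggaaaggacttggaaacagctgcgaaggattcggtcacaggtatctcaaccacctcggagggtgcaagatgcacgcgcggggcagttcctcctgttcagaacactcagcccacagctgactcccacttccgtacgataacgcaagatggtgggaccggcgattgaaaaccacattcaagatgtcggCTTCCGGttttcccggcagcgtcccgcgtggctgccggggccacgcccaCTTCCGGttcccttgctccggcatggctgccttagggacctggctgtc
Mrpl42: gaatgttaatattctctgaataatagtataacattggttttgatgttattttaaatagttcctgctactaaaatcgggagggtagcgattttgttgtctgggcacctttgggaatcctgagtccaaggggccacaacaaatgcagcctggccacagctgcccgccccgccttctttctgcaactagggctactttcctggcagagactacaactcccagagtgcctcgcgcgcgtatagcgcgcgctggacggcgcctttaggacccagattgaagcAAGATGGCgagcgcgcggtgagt
Mrpl58: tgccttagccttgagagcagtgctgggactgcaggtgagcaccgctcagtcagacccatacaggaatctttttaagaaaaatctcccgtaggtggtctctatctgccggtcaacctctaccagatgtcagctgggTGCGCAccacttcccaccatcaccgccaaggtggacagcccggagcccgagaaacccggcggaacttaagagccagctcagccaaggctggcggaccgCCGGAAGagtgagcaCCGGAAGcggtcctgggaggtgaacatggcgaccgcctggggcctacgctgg
Mrpl9: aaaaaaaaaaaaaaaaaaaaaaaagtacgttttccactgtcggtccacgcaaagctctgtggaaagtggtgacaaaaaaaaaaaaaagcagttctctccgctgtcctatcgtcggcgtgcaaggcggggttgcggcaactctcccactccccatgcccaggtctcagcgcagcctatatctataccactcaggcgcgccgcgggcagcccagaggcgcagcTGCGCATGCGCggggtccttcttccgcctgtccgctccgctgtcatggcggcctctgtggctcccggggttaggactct
Mrps30: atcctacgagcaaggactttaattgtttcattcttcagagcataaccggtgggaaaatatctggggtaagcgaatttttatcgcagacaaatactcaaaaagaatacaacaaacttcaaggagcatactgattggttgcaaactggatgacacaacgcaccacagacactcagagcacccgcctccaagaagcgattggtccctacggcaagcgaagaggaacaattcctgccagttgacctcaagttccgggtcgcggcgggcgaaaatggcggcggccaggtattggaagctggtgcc

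Mrpl52 holds ETS letters at bases 204 to 210 and 253 to 259 of its window, counted from the 5′ end, and Mrpl42 holds the YY1 letters at bases 278 to 285, just after the start. Mrpl58 holds the NRF1 core at bases 136 to 141 and ETS letters at 234 to 240 and 249 to 255. In Mrpl9 the full NRF1 motif at bases 223 to 232 overlaps the core at 222 to 227, so both count the same place. Over the 69 genes, ETS letters were in 26 (37.7%), the NRF1 core in 21 (30.4%), YY1 letters in 12 (17.4%) and the full NRF1 motif in 3 (4.35%). Among all 10886 tested genes with a window the shares were 18.8%, 15.5%, 4.87% and 2.20%. At least 1 of the 4 motifs was in a window of 45 of the 69 genes (65.2%), against 34.4% of tested genes. Counted by window, of which a gene can have several (75 for the 69 genes), it was in 17.6% of all 32851 windows. TATAAA, the TATA box, was in 5 (7.25%), against 8.88% of tested genes. Base composition differed as well, with a median GC content of 58.7% in the genes' windows and 52.7% in all windows, and its part in the motif shares was not tested. A match is a description of letters and not a binding site. In aged control against young control the median log2 fold change was 0.59 for genes with ETS letters and 0.56 for those without. It was 0.50 with and 0.58 without the NRF1 core, and 0.58 and 0.57 for YY1 letters. For the full NRF1 motif it was 0.35 (3 genes) and 0.57. These differences were not tested.

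Depth allowed each of the 78 genes to be measured in each library. Library totals ran from 13184169 to 16528179 counts, and the lowest count of any of these genes in any library was 56. Levels are given as CPM, a count scaled to a fixed library total with TMM factors, which sets libraries to a common scale through the bulk of their genes. Together the genes took 0.221% to 0.231% of the counts of aged EGCG libraries, 0.215% to 0.229% in aged control and 0.179% to 0.184% in young control. The libraries also differed in cells other than lens. The summed level of 17 photoreceptor markers was 9980 to 10150 CPM in aged EGCG, 1305 to 1358 CPM in aged control and 22403 to 22498 CPM in young control, with no marker at 0 in all libraries of a group. Lens identity was present throughout, with summed lens epithelium markers (13 genes) averaging 5800, 6057 and 3743 CPM and summed lens fibre markers (20 genes) averaging 40296, 46072 and 41986 CPM in the same order of groups. Summed crystallins (9 genes) averaged 287076, 357309 and 218346 CPM in that order. Endothelial and mural markers (8 genes) averaged 35.1, 44.9 and 152 CPM and red blood cell markers (5 genes) were likewise highest in young control. In bulk tissue, fewer cells of a type and less RNA per cell cannot be told apart.

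In aged control against young control capsule, 62 of the 78 genes rose, 1 fell and 15 did not pass the test. The median log2 fold change was 0.57, a 1.48-fold higher level, and the range was −0.48 to 1.34. Large subunit genes had 39 of 51 higher and small subunit genes 22 of 26 higher, with medians of 0.57 and 0.59. Mrpl30, Mrps30, Mrps15, Mrpl52 and Mrps10 rose by 2-fold or more. These are 5 of 78, where 1017 of all 13711 tested genes were called higher by as much. Mrpl41, a mitochondria-specific protein of the large subunit, was the single gene that fell. Calls are from the quasi-likelihood test of edgeR (two-sided, 1 fit of all 9 libraries) at a Benjamini-Hochberg adjusted p under 0.05 over all genes tested. Much of the transcriptome was called in this comparison, 35.4% of tested genes higher and 33.8% lower, with a median of 0.02. Of the 78 genes 79.5% were called higher. In 60 of them all 3 aged control libraries lay above all 3 young control libraries, which held for 36.9% of tested genes, and in 2 (Mrpl41 and Mrps17) all lay below, against 35.3%.

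**Figure D1:**
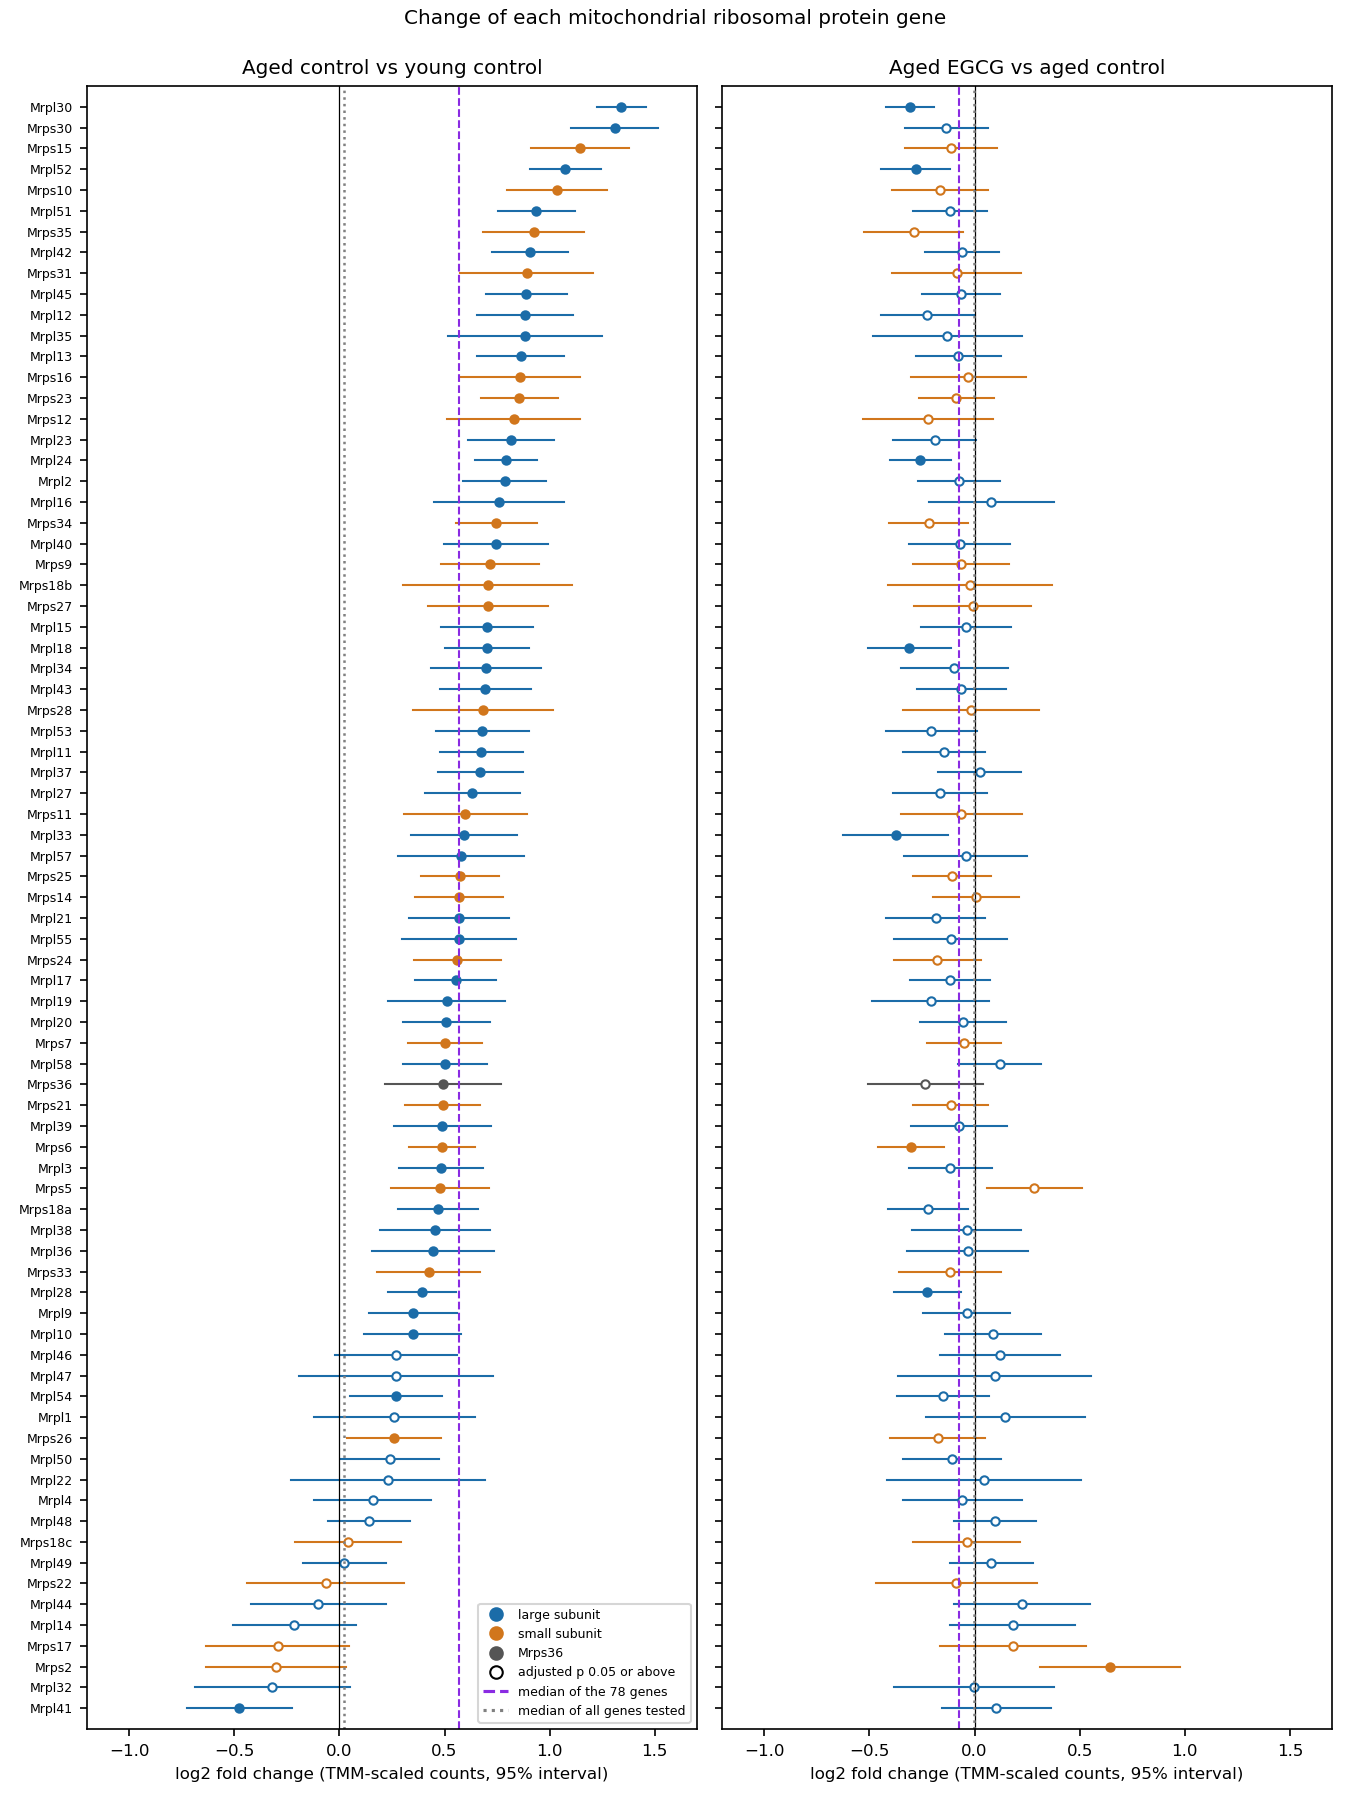
Log2 fold change of each of the 78 genes (point) with its 95% interval (line), in aged control against young control on the left and aged EGCG against aged control on the right, ordered by the left panel and coloured by subunit, with filled points for adjusted p under 0.05. Most points on the left lie right of 0 around the dashed median of 0.57, while on the right most intervals cross 0 around a median of −0.08.

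Mrpl30, a large subunit protein with bacterial homologues (chromosome 1, 37890477 to 37898535, plus strand), had 138, 145 and 144 CPM in aged EGCG libraries, against 184, 173 and 172 CPM in aged control and 66.7, 69.4 and 73.1 CPM in young control libraries. The 3 groups did not overlap, with young control lowest and aged control highest. Between aged and young control its log2 fold change was 1.34 (SE 0.0581, edgeR adjusted p = 5.14e-25), a 2.53-fold difference. Mrps30, a mitochondria-specific protein that sits in the large subunit (chromosome 13, 118378381 to 118387252, minus strand), had 33.7, 36.9 and 37.9 CPM in aged EGCG, 38.0, 38.5 and 42.7 CPM in aged control and 14.6, 15.8 and 17.6 CPM in young control. All 6 aged libraries stood well above the young ones, and the aged control libraries lay just above the EGCG ones. Its log2 fold change with age was 1.31 (SE 0.103, edgeR adjusted p = 1.80e-15). Exons of Mrps30 share 623 bases with B430218F22Rik on the opposite strand, and no source used here says whether the counting used strand.

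Mrpl52, mitochondria-specific and the gene with the highest level per length among the 78 (mean 135 FPKM, the deposited unit that divides counts by gene length and library total), is on chromosome 14, 54426909 to 54429756, plus strand. It had 58.4, 58.1 and 66.7 CPM in aged EGCG, 83.3, 75.6 and 63.2 CPM in aged control and 35.2, 34.6 and 35.8 CPM in young control. Young control libraries were tightly grouped and lowest, while the aged groups overlapped each other. The change between aged and young control was 1.07 on the log2 scale (SE 0.0842, edgeR adjusted p = 1.35e-15). Mrps15, of the small subunit, had 31.0, 31.0 and 28.6 CPM in aged EGCG, 33.8, 28.3 and 36.0 CPM in aged control and 15.4, 12.5 and 16.3 CPM in young control. Its aged groups overlapped and both lay above the young one (log2 fold change of aged against young control 1.14, SE 0.115, edgeR adjusted p = 3.46e-12).

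A further 3 large subunit genes had the same order of aged above young. Mrpl24, which has bacterial homologues, had 71.4, 70.0 and 62.0 CPM in aged EGCG, 83.5, 81.1 and 78.9 CPM in aged control and 50.2, 46.1 and 44.3 CPM in young control. Mrpl51 had 58.3, 50.03 and 47.5 CPM in aged EGCG, 61.3, 58.8 and 48.8 CPM in aged control and 29.1, 30.8 and 28.4 CPM in young control. Mrpl42 had 55.3, 49.1 and 45.6 CPM in aged EGCG, 48.7, 57.5 and 50.01 CPM in aged control and 27.1, 27.4 and 29.0 CPM in young control. Both Mrpl51 and Mrpl42 are mitochondria-specific, and in both the aged groups overlapped, whereas the 3 groups of Mrpl24 were apart. Log2 fold changes between aged and young control were 0.79 for Mrpl24, 0.94 for Mrpl51 and 0.90 for Mrpl42, with edgeR adjusted p of 2.45e-13, 1.28e-12 and 2.47e-12.

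Mrpl41 went the other way. This large subunit protein, also known to bind the apoptosis regulator Bcl-2 (chromosome 2, 24974117 to 24975098, minus strand), had 17.8, 22.3 and 15.8 CPM in aged EGCG, 19.0, 17.9 and 15.1 CPM in aged control and 24.1, 23.7 and 24.7 CPM in young control. All 6 aged libraries lay below the 3 young ones. Aged control was 1.39-fold lower than young control (log2 fold change −0.48, SE 0.124, edgeR adjusted p = 0.000765).

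**Figure D2:**
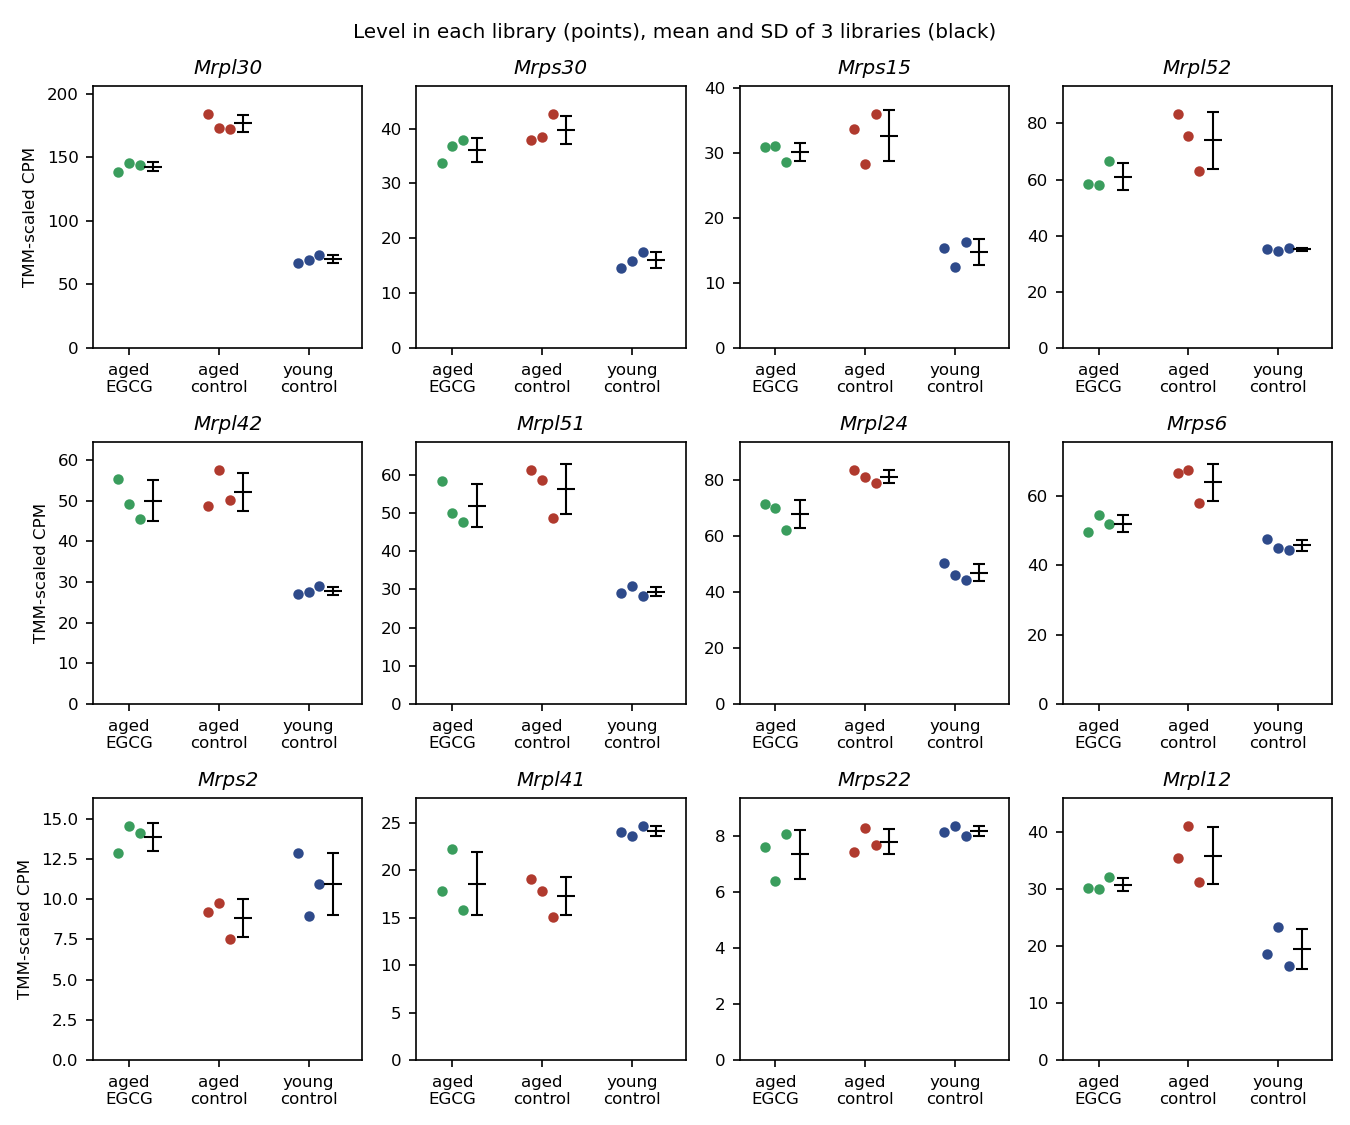
TMM-scaled CPM of 12 genes in each library (coloured points, 3 per group) with the group mean and SD (black), in aged EGCG, aged control and young control from left to right, each axis starting at 0. Mrpl30 is apart in all 3 groups, Mrpl41 is highest in young control, Mrps2 is lowest in aged control and the groups of Mrps22 overlap.

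Large subunit genes whose products have a known function differed in their change with age. The flexible stalk that recruits translation factors includes Mrpl12, which also binds the mitochondrial RNA polymerase, and rests on Mrpl10 and Mrpl11. Mrpl12 rose by 0.88 on the log2 scale and Mrpl11 by 0.67 (edgeR adjusted p = 2.86e-09 and 5.79e-08), while Mrpl10 rose by 0.35 (adjusted p = 0.00696, lost with library size only, on the lens fibre scale, with the length trend removed, on FPKM and without aged control replicate 1). Mrpl3, near the peptidyl transferase centre, had 34.0, 38.0 and 33.2 CPM in aged EGCG, 41.1, 38.7 and 34.2 CPM in aged control and 26.2, 30.5 and 24.98 CPM in young control, a log2 change of 0.48 between the control groups (edgeR adjusted p = 3.57e-05, lost with library size only and on both FPKM scales). Mrpl58, a peptidyl-tRNA hydrolase that rescues stalled ribosomes, rose by 0.50 (edgeR adjusted p = 1.99e-05, lost with library size only and with the length trend removed). Mrpl44, which has a fold related to ribonuclease III, was at −0.10 (95% interval −0.42 to 0.22, edgeR adjusted p = 0.589) and was called lower with library size only, with the length trend removed and on both FPKM scales.

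Small subunit genes showed the same mixture. Mrps12, of the decoding centre, rose by 0.83 (edgeR adjusted p = 9.24e-06) and Mrps16, a protein with bacterial homologues, by 0.86 (adjusted p = 7.12e-07). Mrps5, whose reduced expression has been tied to longer life in worms, had 25.2, 29.3 and 26.0 CPM in aged EGCG, 20.8, 22.3 and 23.1 CPM in aged control and 16.4, 14.7 and 16.4 CPM in young control. Its 3 groups did not overlap, EGCG being highest, and the change between control groups was 0.48 (edgeR adjusted p = 0.000317). That call was lost with library size only (0.16), with the length trend removed (0.09) and on both FPKM scales (0.15 and 0.16), with adjusted p between 0.113 and 0.518. Between aged EGCG and aged control it was 0.28 and did not pass (edgeR adjusted p = 0.0598), while 5 settings, library size only among them (0.41, adjusted p = 0.00543), called it higher. Mrps22, mitochondria-specific, had 7.61, 6.37 and 8.05 CPM in aged EGCG, 7.43, 8.29 and 7.66 CPM in aged control and 8.13, 8.35 and 8.002 CPM in young control, groups that overlapped (log2 fold change with age −0.07, 95% interval −0.44 to 0.31). It was called lower with the length trend removed and on both FPKM scales. Mrps36, the gene outside the ribosome, rose by 0.49 (edgeR adjusted p = 0.00141), a call lost with library size only, on both FPKM scales and with the length trend removed, where its value was −0.0028.

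Genes of both origins rose. Of the 46 with bacterial homologues 37 were higher and 0 lower in aged control by edgeR (also 0 lower at an unadjusted p under 0.05 and 0 by DESeq2), with a median of 0.57. The 29 mitochondria-specific genes comprised 22 called higher and 1 called lower, and their median was 0.58. The difference between these medians was not tested. Besides Mrpl41, 6 genes had a log2 change below 0 without passing the test, namely Mrpl14, Mrpl32, Mrpl44, Mrps2, Mrps17 and Mrps22, named after their values were seen.

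The size of the rise with age depended on the scale. In each of 20 settings 30 genes (18 of the large and 12 of the small subunit) were called higher in aged control. These settings comprised the reported fit, 10 others and 9 that each left out 1 library. Many share a scaling or most of their libraries, so they are not independent checks. The share of all tested genes called higher in every setting is not given here, so the 30 genes cannot be set against it. With library size only the median of all genes was −0.30, and the 78 genes had a median of 0.25 with 36 higher and 8 lower, against 21.4% and 47.0% of tested genes. On the lens fibre scale the median of all genes was −0.16, and the 78 genes had a median of 0.39 with 55 higher and 5 lower, against 27.5% and 41.0%. In the reported fit the 20 genes behind that scale had 13 higher and 6 lower themselves, with a median of 0.40. The shares of all tested genes in that fit were 35.4% and 33.8%. Shorter genes tended to be higher with age over the whole table (Spearman −0.33 between length and change, across genes that are not independent replicates), and the 78 genes are short, with a median length of 1412.5 bases against 3722. With the length trend of each library removed, 38 were higher and 9 lower (34.0% and 32.8% of tested genes), and the median was 0.26. The lengths used are those behind the deposited FPKM. Among the 78 genes they ran from 0.064 to 7.93 times the annotated exon bases, which limits this setting. On log2(FPKM + 1) and log2(FPKM + 0.1) alike 40 were higher and 8 lower, where 21.5% and 21.4% of tested genes were higher and 46.9% and 46.5% lower. Both FPKM scales divide by the library total without TMM factors, so they repeat the scaling of library size only with another test. Within the 78 genes the correlation of length and change was −0.04. Relative to the median of all genes in the same setting, the 78 genes lay 0.55 higher in the reported fit and 0.25 higher with the length trend removed. All 17 photoreceptor markers fell in aged control, with a median log2 fold change of −4.24 against young control. Of the lens epithelium markers 8 of 13 were higher and 3 lower (median 0.70). Crystallins had 8 of 9 higher and 1 lower (median 0.51), against 35.4% and 33.8% of tested genes. The part of these markers in the change of the 78 genes was not tested.

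**Figure D3:**
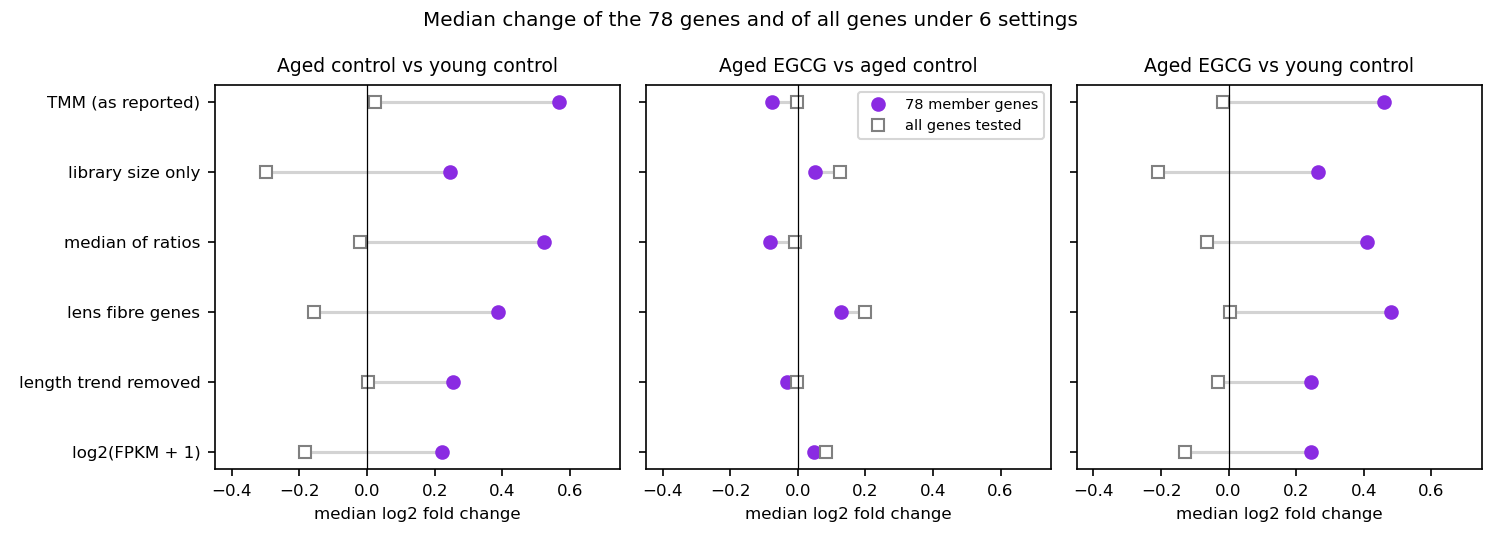
Median log2 fold change of the 78 genes (filled circles) and of all genes tested (open squares) for the 3 comparisons under 6 settings, joined by a line. In both comparisons with young control the circles stay right of 0 and of the squares, whereas between the aged groups the circle lies left of its square in each setting and on either side of 0.

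Sums over the genes give the same picture per library. Their summed level was 2359, 2242 and 2231 CPM in aged EGCG libraries, 2596, 2473 and 2319 CPM in aged control and 1593, 1642 and 1585 CPM in young control. The aged groups overlapped and both lay above young control. The summed CPM of large over small subunit genes was 2.36 to 2.53 in aged EGCG, 2.46 to 2.53 in aged control and 2.35 to 2.40 in young control.

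Treatment was addressed by setting aged EGCG against aged control. Of the 78 genes, 1 was higher (Mrps2), 7 were lower (Mrpl18, Mrpl24, Mrpl28, Mrpl30, Mrpl33, Mrpl52 and Mrps6) and 70 did not pass the test of edgeR, with a median log2 fold change of −0.08 and a range of −0.38 to 0.64. Among all tested genes 13.8% were called higher and 10.3% lower, so that 7 of 78 is close to the share of lower genes in general and 1 of 78 is below that of higher ones. All 3 EGCG libraries lay above all aged control libraries in 3 of the genes (17.8% of tested genes) and below them in 13 (15.7%). The sign of the median turned with the scale, to 0.05 with library size only, where the median of all genes was 0.12, and to 0.13 on the lens fibre scale, where it was 0.20. With library size only 2 of the 78 genes were higher and 1 lower (22.5% and 4.46% of tested genes). On the lens fibre scale 8 were higher and 0 lower by edgeR (33.4% and 3.12%), with 0 lower also at an unadjusted p under 0.05. In the reported fit the 20 genes behind that scale had 0 higher and 12 lower themselves (0 higher also by DESeq2), with a median of −0.19. The scale sets their mean log level equal in all libraries, so their fall raises the values of other genes on it. With the length trend removed 2 were higher and 3 lower (14.1% and 10.7%). On log2(FPKM + 1) and log2(FPKM + 0.1) 4 were higher and 1 lower, where 17.5% and 19.1% of tested genes were higher and 3.70% and 3.94% lower. By DESeq2 1 was higher and 6 were lower (13.4% and 10.1%). All 17 photoreceptor markers rose in aged EGCG against aged control, with a median log2 fold change of 3.16, and all 9 crystallins fell, with a median of −0.31. The part of either set in these values was not tested.

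Mrps2, a small subunit protein with bacterial homologues (chromosome 2, 28468066 to 28471178, plus strand), had 12.9, 14.5 and 14.1 CPM in aged EGCG libraries, 9.21, 9.77 and 7.51 CPM in aged control and 12.9, 8.97 and 10.9 CPM in young control, from 97 to 212 counts per library. The aged groups were apart, and young control overlapped aged control. EGCG was 1.56-fold higher than aged control (log2 fold change 0.64, SE 0.165, edgeR adjusted p = 0.00235), a call made in each of the 20 settings. Against young control, the aged control change of −0.30 (edgeR adjusted p = 0.101) and the aged EGCG change of 0.34 (adjusted p = 0.0582) did not pass. The first was called in 6 of the other settings and the second in 5.

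Mrpl30 had the lowest p of the 7 lower genes. In the values given above the EGCG libraries lay below each aged control library and above each young one. EGCG was 1.24-fold lower than aged control (log2 fold change −0.31, SE 0.0559, edgeR adjusted p = 2.41e-05), and the call was lost on the lens fibre scale, where the change was −0.11 (adjusted p = 0.14). Mrpl24 was at −0.26 (edgeR adjusted p = 0.00535) and was not called with library size only, on the lens fibre scale, on FPKM or without EGCG replicate 3. For Mrpl52, at −0.28 (edgeR adjusted p = 0.00789), the groups overlapped, and the call was lost in the same scalings, with the length trend removed, without aged control replicate 1 and without EGCG replicate 2.

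Mrps6, of the small subunit (chromosome 16, 92058270 to 92112227, plus strand), had 49.7, 54.5 and 51.8 CPM in aged EGCG, 66.7, 67.5 and 57.8 CPM in aged control and 47.6, 44.99 and 44.5 CPM in young control. Aged control libraries were above all others. EGCG differed from aged control by −0.30 (SE 0.0778, edgeR adjusted p = 0.00276), a call lost with library size only, on the lens fibre scale, with the length trend removed and on FPKM. Its exons share 159 bases on the same strand with Slc5a3, the sodium/myo-inositol cotransporter, which averaged 39.5 CPM in aged EGCG, 94.7 CPM in aged control and 37.2 CPM in young control. Reads of Slc5a3 and Mrps6 in the shared bases cannot be told apart in a table of gene totals. The change of Mrps6 between aged and young control was 0.49 in the reported fit, a call lost with library size only and with the length trend removed, where it was −0.01.

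Mrpl18 and Mrpl33, of the large subunit, were called in fewer settings than Mrpl30. Mrpl18 had 34.3, 29.7 and 34.1 CPM in aged EGCG, 42.7, 43.3 and 35.5 CPM in aged control and 25.6, 26.2 and 23.1 CPM in young control (EGCG against aged control −0.31, edgeR adjusted p = 0.0162). Mrpl33 had 22.6, 22.3 and 17.9 CPM in aged EGCG, 32.1, 26.1 and 23.2 CPM in aged control and 19.5, 19.2 and 15.4 CPM in young control (−0.38, edgeR adjusted p = 0.0217). In both genes every EGCG library lay below every aged control library, but the gap between the nearest libraries was small. The Mrpl18 call was lost without aged control replicate 1, aged control replicate 2 or EGCG replicate 2, and the Mrpl33 call without aged control replicate 1 or EGCG replicate 3. Both calls were also lost with library size only, on the lens fibre scale and on both FPKM scales, and that of Mrpl33 with the length trend removed. Mrpl28 was at −0.22 (edgeR adjusted p = 0.0339), and its call was lost in 9 settings, which are those of Mrpl33, DESeq2 (adjusted p = 0.0542) and the fit without aged control replicate 2.

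How far treated aged tissue stood from young tissue was measured by aged EGCG against young control. Here 58 of the 78 genes were higher, 1 was lower (Mrpl41) and 19 did not pass, with a median log2 fold change of 0.46 and a range of −0.37 to 1.17, where 32.3% of all tested genes were called higher and 31.4% lower. Large subunit genes had 37 of 51 higher and small subunit genes 21 of 26. The young control libraries are the same as in the comparison of the control groups, so the results are given side by side and not as independent evidence. Of the 62 genes higher in aged control, 56 were also higher in aged EGCG and 6 (Mrpl19, Mrpl28, Mrpl33, Mrpl54, Mrps26 and Mrps36) were not called there. Mrpl46 and Mrpl48 were called higher in aged EGCG only, a difference in calls that is not a test of EGCG against aged control, where they were at 0.12 and 0.10 (edgeR adjusted p = 0.597 and 0.517). Against young control the call of Mrpl46 was lost in 5 settings and that of Mrpl48 in 9. Mrpl46 shares 173 exon bases with Mrps11 on the opposite strand.

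The largest changes between aged EGCG and young control were in Mrps30 (log2 fold change 1.17, edgeR adjusted p = 1.09e-13), Mrpl30 (1.03, adjusted p = 2.47e-20) and Mrps15 (1.03, adjusted p = 1.05e-10). Among the others described above, Mrpl42 was at 0.85, Mrpl51 at 0.82 and Mrpl52 at 0.79. Mrpl41 was at −0.37 (edgeR adjusted p = 0.00809), and without EGCG replicate 3, its lowest library, at −0.26 (adjusted p = 0.082). With the length trend removed 36 were called higher and 10 lower (30.3% and 29.7% of tested genes) and the median was 0.24. In each of the 20 settings 30 of the genes were called higher, again without a share of all tested genes to set beside them.

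Levels per length, in FPKM, ranged widely among the genes. Mrpl52 averaged 146 ± 12.3 FPKM in aged EGCG, 162 ± 18.3 FPKM in aged control and 96.3 ± 2.10 FPKM in young control (SD, n = 3 each). Next in order of mean FPKM over the 9 libraries were Mrps21 (83.8), Mrps6 (68.5) and Mrpl42 (61.7), and lowest were Mrpl35 (2.33), Mrpl14 (2.27), Mrpl1 (1.82) and Mrpl4 (1.76). For the lowest pair, Mrpl4 had 1.75 ± 0.125 FPKM in aged EGCG, 1.67 ± 0.236 FPKM in aged control and 1.87 ± 0.182 FPKM in young control, and Mrpl1 had 2.03 ± 0.368 FPKM, 1.69 ± 0.335 FPKM and 1.75 ± 0.0557 FPKM in the same groups, which differ by less than their spread. Neither gene was called against young control in the reported fit. With the length trend removed Mrpl4 was called higher than in young control in aged control (0.51, edgeR adjusted p = 0.00100) and aged EGCG (0.45, adjusted p = 0.00465). Mrpl1 was called higher in aged EGCG than in young control in 5 settings, length trend removed among them, at 0.41 to 0.53. The FPKM order and the removal of the length trend both rest on the gene lengths behind the deposited FPKM. Set against the exon bases in the GENCODE vM21 annotation, that length was 7.93 times as large for Mrpl14 and 3.19 times for Mrpl4, and 0.372 times for Mrpl52, so that part of the distance between these genes comes from the length used.

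Other parts of the mitochondrial translation system were read from lists of their genes, to be set against the 35.4% of all tested genes called higher and the 33.8% called lower with age. Subunits whose symbols do not start with Mrpl or Mrps had 4 of 5 genes higher in aged than in young control and 0 lower by edgeR (0 lower also at an unadjusted p under 0.05 and by DESeq2). They were Aurkaip1 (log2 fold change 0.70), Gadd45gip1 (0.58), Dap3 (0.41) and Chchd1 (0.38), and Ptcd3 was at 0.13. Assembly factors had 10 of 25 higher and 4 lower, with a median of 0.33, so that its share of higher genes (40%) was near that of all genes. C1qbp (1.22), a matrix protein needed for translation, Rbfa (1.03), which helps to mature the small subunit RNA, and Mpv17l2 (0.99) rose, while Nsun4 (−1.39), the RNA methyltransferase that monitors subunit joining, and Mettl17 (−1.10) fell, each called by edgeR (adjusted p between 1.64e-19 and 5.07e-05).

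Lists of soluble factors held genes called in either direction. Translation factors had 5 of 13 higher and 5 lower, among them Mrrf, the ribosome recycling factor (0.99), and Tufm, the elongation factor that delivers tRNA (0.55), which rose, and Mtif2, the initiation factor (−0.87), and Guf1 (−0.50), which fell. Mitochondrial tRNA synthetases and the amidotransferase had 5 of 20 higher and 6 lower, with Fars2 at 1.29 and Mars2 at −2.41. Genes of mitochondrial DNA upkeep, transcription and RNA handling had 5 of 24 higher and 8 lower. Among them the coactivators of mitochondrial biogenesis were lower in aged control than in young control. Photoreceptor markers were also highest in young control, and their part in these values was not tested. Ppargc1a averaged 5.55 CPM in aged EGCG, 5.58 CPM in aged control and 17.7 CPM in young control, and Ppargc1b 6.29, 3.64 and 19.5 CPM in the same groups (log2 fold change of aged against young control −1.66 and −2.42, edgeR adjusted p = 1.08e-11 and 6.45e-16). Nrf1 and Gabpa, whose motifs are described above, were at −0.01 and 0.19 in that comparison and did not pass (edgeR adjusted p = 0.931 and 0.0738). Genes of mitochondrial membrane, import, matrix and chaperones had 13 of 16 higher and 2 lower (Hspe1 and Timm44) with a median of 0.54, among them Phb at 0.87 and Vdac3 at 0.80.

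**Figure D4:**
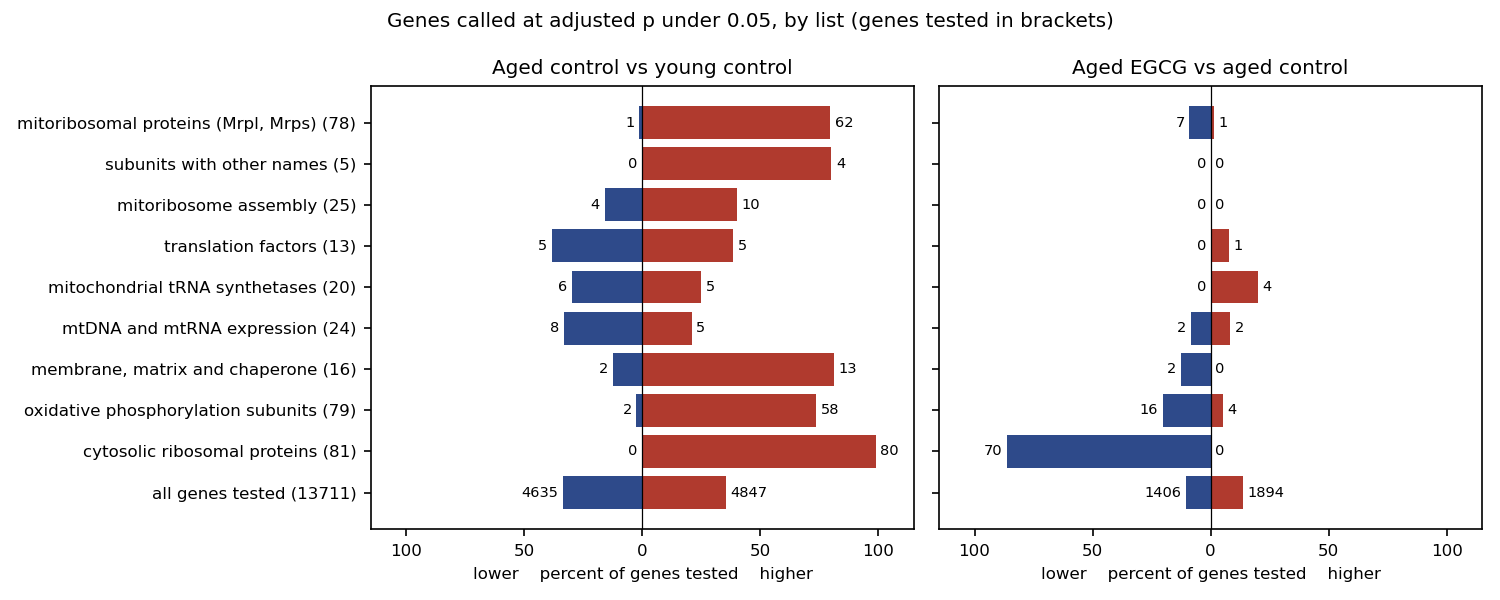
Percent of each list called higher (bars to the right) and lower (bars to the left) at adjusted p under 0.05, with the number of genes at each bar, for aged control against young control and aged EGCG against aged control. The 78 mitoribosomal protein genes and the cytosolic ribosomal protein genes are mostly higher with age, and between the aged groups 70 of the 81 cytosolic genes and 7 of the 78 mitoribosomal genes are lower on this scale, against 7 and 0 on the lens fibre scale. Of all tested genes 10.3% are lower between the aged groups, and 3.12% on the lens fibre scale.

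Between aged EGCG and aged control, assembly factors and subunits with other names had 0 genes called in either direction by edgeR and by DESeq2 (at an unadjusted p under 0.05, 1 assembly factor higher and 1 lower and no such subunit). Among translation factors Taco1, which activates translation of a cytochrome oxidase subunit, was higher (0.89, edgeR adjusted p = 0.00178). Lars2 (0.44), Aars2 (0.51), Vars2 (0.42) and Iars2 (0.25), which charge mitochondrial tRNAs with leucine, alanine, valine and isoleucine, were higher, with edgeR adjusted p between 1.14e-06 and 0.0414. These are 4 of 20 synthetases, where 13.8% of all tested genes were higher. Genes of mitochondrial DNA upkeep, transcription and RNA handling had 2 of 24 higher and 2 lower, against 13.8% and 10.3% of all tested genes. Called were Ppargc1b, which was higher, Polg2, Gabpa and Hsd17b10. On the lens fibre scale 9 of 20 synthetases, 5 of 25 assembly factors and 8 of these 24 genes were higher, where 33.4% of all tested genes were. Genes of mitochondrial membrane, import, matrix and chaperones had 0 of 16 higher by edgeR and by DESeq2 (1 at an unadjusted p under 0.05). In that list 2 were lower (Hspe1 and Tomm20). On the lens fibre scale 10 of these 16 were higher, a larger share than the 33.4% of all tested genes.

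Cytosolic ribosomal protein genes and nuclear oxidative phosphorylation genes, collected by symbol after their values were seen, were set beside the 78 genes. Cytosolic ribosomal protein genes had 80 of 81 higher in aged against young control (median 0.95). In aged EGCG against aged control 70 of 81 were lower (median −0.23). On the lens fibre scale, however, 4 were higher and 7 lower (median −0.02), against 33.4% and 3.12% of tested genes. Oxidative phosphorylation genes had 58 of 79 higher and 2 lower with age (median 0.39), and 4 higher and 16 lower with EGCG (median −0.06). Of all tested genes 35.4% were higher and 33.8% lower with age, and 13.8% and 10.3% with EGCG. On the lens fibre scale the oxidative phosphorylation median with EGCG was 0.14 and 27 were higher, a share near the 33.4% of all tested genes. With the length trend removed the medians with age were 0.48 for the cytosolic genes, −0.06 for oxidative phosphorylation and 0.26 for the 78 mitoribosomal genes. Whether these lists differ from the 78 genes was not tested.

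Read assignment limits the values of single genes. Exons of 33 of the 78 genes overlap another annotated gene, 21 of them a gene in the table and 3 of these on the same strand. Among the 45 without any overlap 36 were higher and 1 lower in aged against young control, and 1 higher and 3 lower in aged EGCG against aged control. Processed pseudogenes named after the genes number 5 in the annotation, and no source used here says how reads matching both copies were counted.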

How the data were processed

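RNA from 9 anterior lens capsule samples was sequenced from SMARTER mRNA-Seq libraries, per the labels' protocols, and the build was GRCm38 (mm10) per the submitters' processing notes. For the aligner, the counter, the gene models and the strand setting, names were not given in the sources used here. Deposited by the authors were whole-number read counts per gene symbol and a table of FPKM values. Deposited FPKM equals the count over 1 length per gene and the library total, so gene lengths were taken from that relation. The FPKM settings therefore share the scaling of library size only, and a call that changes in all of them reflects 1 choice of scale.

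Groups came from the sample titles. Counts were fitted with edgeR 4.0.16 in R 4.3.3 (filterByExpr, TMM, quasi-likelihood test, 1 fit of 3 group means, 13711 genes, biological coefficient of variation 7.89%), with Benjamini-Hochberg adjustment over all genes tested and calls at 0.05. SE and 95% intervals belong to log2 fold changes. Alternatives were DESeq2 1.42.0, limma 3.58.1 on log2(FPKM + 1) and log2(FPKM + 0.1), other scalings (library size only, median of ratios, 20 lens fibre genes), a lowess offset (span 0.3) for gene length, no filter, only the groups compared, a replicate block and each library left out. Genes overlapping other exons were left out in 1 alternative chosen after seeing the data. Overlaps used GENCODE vM21.

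The genes and lists were chosen with earlier results of these data known. Named genes are, per comparison, the 6 higher and 6 lower calls with the smallest p and the 3 largest rises and falls, 12 fixed genes of known role, and the 4 highest and 4 lowest by FPKM. Other genes are named to spell out a count or as list members after their values were seen.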

Additional observations from a re-analysis of the deposited data

How the results depend on the processing

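In aged against young control, the 62 higher genes became 36 with library size only, 38 with the length trend removed, 40 on both FPKM scales and 36 (of 45 genes) without exon overlaps. The 1 lower gene became 8, 9, 8 and 8 in the first 4 of these and 5 on the lens fibre scale. The median was 0.246, 0.256, 0.223 (FPKM + 1), 0.240 (FPKM + 0.1) and 0.387 (lens fibre). Leaving out 1 library gave 58 to 63 higher, 1 to 3 lower (3 without aged control replicate 1, 2 without young control replicate 2) and medians of 0.529 to 0.628.

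In aged EGCG against aged control, the 1 higher gene became 2 with library size only, 2 with the length trend removed, 4 on both FPKM scales and 8 on the lens fibre scale, and the 7 lower genes became 1, 3, 1 and 0, and 3 without exon overlaps. The median reversed to 0.0523 (library size only), 0.127 (lens fibre), 0.04803 (FPKM + 1) and 0.0542 (FPKM + 0.1), and was −0.0334 with the length trend removed. Leaving out 1 library gave 1 higher each time, 4 to 9 lower (4 without aged control replicate 1 or without EGCG replicate 3) and medians of −0.125 to −0.0488.

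In aged EGCG against young control, higher genes were 36 with the length trend removed and 33 without exon overlaps. Lower genes were 2 with library size only, 10 with the length trend removed and 4 on both FPKM scales, where 40.6%, 29.7%, 41.0% and 40.1% of tested genes were lower. Medians were 0.265 (library size only), 0.244 (length trend removed), 0.245 (FPKM + 1), 0.261 (FPKM + 0.1) and 0.574 (no exon overlap). Leaving out 1 library gave 53 to 61 higher, 0 to 1 lower (0 without EGCG replicate 3) and medians of 0.433 to 0.520.

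Single genes changed sign in these cases. With the length trend removed, Mrps21 was at −0.0248, Mrps36 at −0.00283, Mrps6 at −0.0101 and Mrpl28 at −0.0760 in aged against young control. In aged EGCG against young control Mrps6 was at −0.00706 with library size only, −0.190 with the length trend removed (edgeR adjusted p = 0.0282), −0.00781 on log2(FPKM + 1) and −0.00792 on log2(FPKM + 0.1). Mrpl28, at 0.17 and not called in that comparison, was at −0.221 with the length trend removed (adjusted p = 0.00801). The causes were not tested.

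Labels give the groups shared replicate numbers, and no source used here says that they pair the samples. Deviations of libraries of the same number had correlations of −0.02 to 0.03, and those of different numbers −0.02 to 0.04. With 3 libraries a group this check cannot exclude a pairing. With the replicate block the counts were 62 higher and 1 lower (median 0.561), 1 and 7 (−0.077), and 58 and 1 (0.457) in the 3 comparisons. With 3 libraries a group, a gene that did not pass is not shown to be level, and its 95% interval gives the changes the data allow.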
